A study of Mus musculus with 12 samples.

Results

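The genes described are those that make, control and move cholesterol and fatty acids. The list held 38 genes, and 37 of them, of 19938 measured genes in all, had a probe set that the array annotation ties to that symbol alone. Nr1h2 was not analysed here. Where a gene had several such probe sets the brightest over all 12 arrays was taken. RNA came from tumor cells sorted out of the brains of host mice of the FVB strain, of which 6 bore pEGFR-Hi tumors and 6 bore pEGFR-Lo tumors, and each mouse gave 1 array. Both lines descend from subventricular zone neural progenitors that lack Ink4a/Arf and were transduced with human EGFRvIII, a constantly active form of the epidermal growth factor receptor. They differ in how strongly that receptor is phosphorylated, high in pEGFR-Hi and low in pEGFR-Lo. The paper also describes more full-length receptor in pEGFR-Lo, whose growth fell without added epidermal growth factor, while pEGFR-Hi kept proliferating. Each line had been passaged through a mouse, carried the fluorescent protein ZsGreen, and was injected into the brain as 2 µl at 200000 cells per µl. Brains were taken near the median survival of each group, which came earlier for pEGFR-Hi, so tumor line and time since injection cannot be told apart. Each group was 1 line, so the p-values measure spread among mice and not among lines. The age of the mice was not stated in the labels or methods.

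Cells build cholesterol from acetyl-CoA through mevalonate, isoprenoid diphosphates, squalene and lanosterol, and a last set of enzymes trims lanosterol to cholesterol. Fatty acids start from the same acetyl-CoA, are assembled by fatty acid synthase, and are then lengthened by elongases and given double bonds by desaturases. SREBP transcription factors drive both pathways when sterols are scarce, with Scap as their escort and the Insig proteins as the anchors that hold them back. When sterols are plentiful, LXR receptors raise the genes that send cholesterol out of the cell. The brain makes nearly all of its own cholesterol, and glial cells are its main source.

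The values are log2 intensities after RMA, a processing that gives every array the same overall distribution, so they do not show whether a cell's RNA content as a whole differed. In a sorted bulk sample, fewer cells of a type and less RNA per cell cannot be told apart. Array medians lay between 4.81 and 4.88. Correlations between arrays over all genes ran from 0.991 to 0.994 within pEGFR-Hi, from 0.985 to 0.993 within pEGFR-Lo, and from 0.944 to 0.959 between the groups. A level of 4.10, below which 95% of 1027 olfactory receptor genes lay, stands for background, and all 37 genes were above it. Markers of the neural progenitor and glioma list averaged 9.42 to 9.70 over the pEGFR-Hi mice and 9.64 to 9.86 over the pEGFR-Lo mice. Of these 6 markers Fabp7 alone was called, as lower in pEGFR-Hi, with a mean of 10.72 against 12.08. Sox2, Olig2 and Nes had higher means in pEGFR-Hi, by 0.51, 0.26 and 0.05 on the log2 scale. Vim and Msi1 differed by -0.09 and -0.21. The 13 microglia and macrophage markers averaged 3.999 to 4.15 in pEGFR-Hi and 4.01 to 4.52 in pEGFR-Lo. Of the 13, Cd68 was called higher in pEGFR-Hi, with a mean of 6.48 against 5.24 in pEGFR-Lo. P2ry12 was called lower in pEGFR-Hi, with a mean of 4.69 against 6.43 in pEGFR-Lo. The means of Ptprc, Itgam, Aif1, Csf1r, Fcer1g and Lyz2 were below background in both groups. Replicates 3 and 6 of pEGFR-Lo stood apart in 1 respect, with means of 4.99 and 4.97 over 17 interferon-stimulated genes, against 5.95 to 6.60 in the other pEGFR-Lo mice.

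Sqle, the squalene epoxidase that carries out a rate-limiting step of sterol synthesis, was lower in pEGFR-Hi than in pEGFR-Lo by 2.08-fold, and it was the only one of the 37 genes that passed the test. The test was limma, and calling a gene took both a difference of at least 2-fold and an adjusted p (Benjamini-Hochberg, over all 19938 genes) under 0.01. By that rule 0 of the 37 were called higher in pEGFR-Hi, where 3.99% of all genes were, and 1 was called lower, where 5.06% of all genes were. At an unadjusted p under 0.05, 4 of the 37 were higher and 10 lower, beside 4586 and 3945 of all 19938 genes. SAM called 0 of the 37 higher and 1 lower, beside 801 and 1009 of all genes. With no fold limit, an adjusted p under 0.01 was reached by 3 genes that were higher, Scd1, Fads2 and Nr1h3, beside 14.7% of all genes. It was reached by 7 that were lower, Mvd, Sqle, Sc5d, Insig2, Srebf2, Elovl6 and Abcg1, beside 12.9% of all genes. The ranges of the 2 groups did not overlap for Scd1 and Nr1h3 among the higher genes, beside 12.2% of all genes, and for Sqle, Srebf2, Elovl6 and Abcg1 among the lower ones, beside 11.1%.

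The differences were small and went both ways. Of the 37 genes 19 were above 0 and 18 below, with a median log2 difference, pEGFR-Hi minus pEGFR-Lo, of 0.02, against 0.01 over all genes. They ran from -1.05 for Sqle to 0.86 for Nr1h3. For 31 of the 37 the 95% interval of the difference stayed inside 2-fold either way, and for 21 it stayed inside 1.5-fold.

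**Figure D1:**
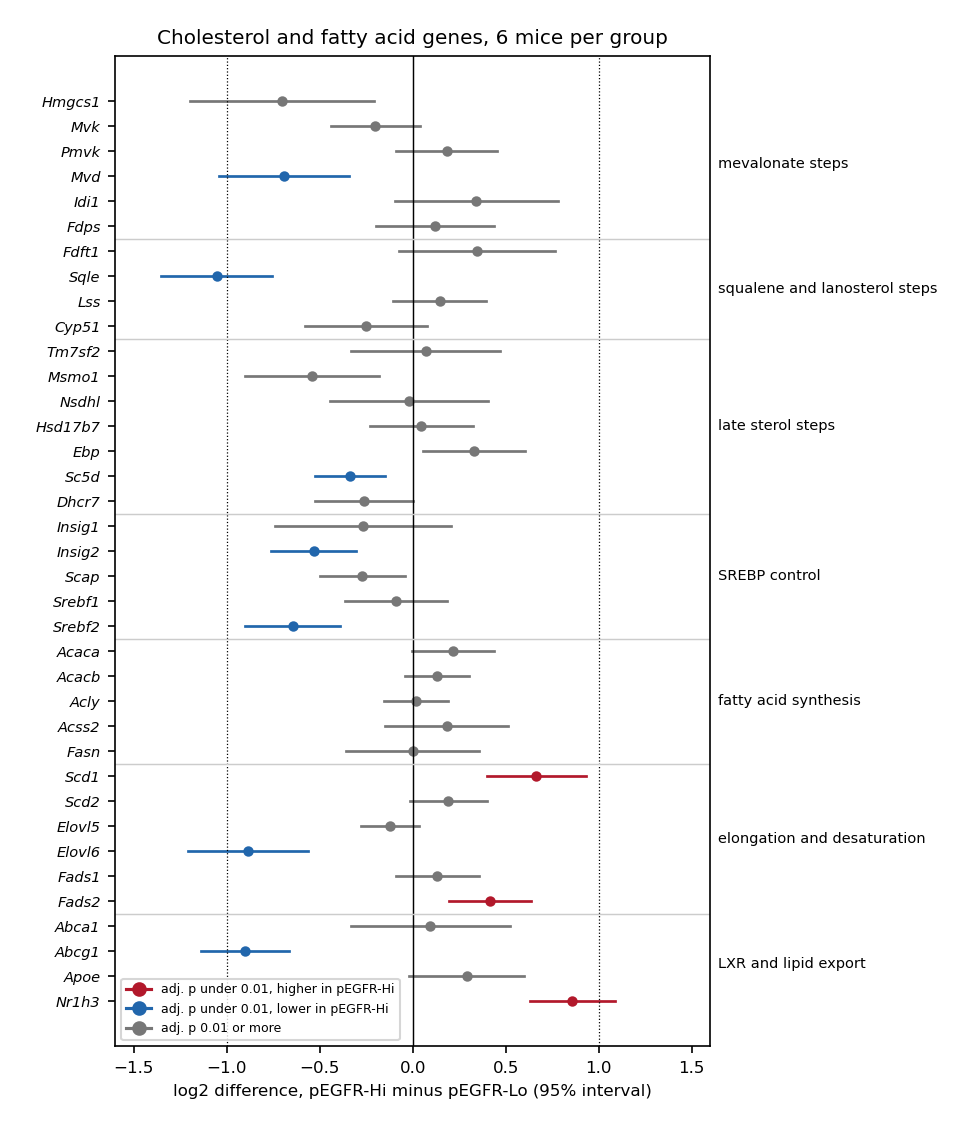
Log2 difference, pEGFR-Hi minus pEGFR-Lo, for each of the 37 genes with its 95% interval from limma (6 mice per group), grouped by role; dotted lines mark 2-fold and colours mark an adjusted p under 0.01. Only Sqle, at -1.05, lies past the 2-fold line, and the 5 genes of fatty acid synthesis lie between -0.00033 and 0.22.

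Of the 6 genes of the mevalonate steps, 0 were called, and their median difference was -0.04. Mvd, which decarboxylates mevalonate diphosphate, read 7.19, 6.22, 6.69, 6.94, 6.90 and 6.62 in pEGFR-Hi mice 1 to 6, against 7.49, 7.42, 6.85, 7.59, 7.58 and 7.80 in pEGFR-Lo mice 1 to 6. It was lower in pEGFR-Hi by 1.62-fold (limma adjusted p 0.00315), and only pEGFR-Lo mouse 3 fell inside the pEGFR-Hi range. Hmgcs1, the cytosolic HMG-CoA synthase at the entry of the pathway, read 8.42, 7.40, 8.20, 7.20, 8.46 and 7.18 in pEGFR-Hi mice, against 9.06, 8.43, 8.57, 8.37, 8.25 and 8.39 in pEGFR-Lo mice. Its log2 difference of -0.70 ± 0.23 (SE) did not pass the limit (limma adjusted p 0.0258), and pEGFR-Hi mice 1 and 5 reached into the pEGFR-Lo range while mice 2, 4 and 6 lay far under it. The 12 measured neighbours of Hmgcs1 had a median difference of -0.25, and the 20 of Mvd a median of 0.01. Idi1, the isomerase of isopentenyl diphosphate, averaged 7.63 ± 0.55 in pEGFR-Hi and 7.29 ± 0.22 in pEGFR-Lo (SD, n = 6 each). Fdps, which makes farnesyl diphosphate, averaged 7.87 ± 0.38 in pEGFR-Hi and 7.75 ± 0.16 in pEGFR-Lo (SD, n = 6 each). The kinases Mvk and Pmvk differed by -0.20 and 0.18 on the log2 scale. None of these 4 reached an adjusted p of 0.05 by limma.

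At the squalene and lanosterol steps 1 of 4 genes was called, as lower, beside 5.06% of all genes. Sqle read 8.56, 7.65, 8.05, 7.85, 8.46 and 7.87 in pEGFR-Hi mice, against 9.34, 9.18, 9.08, 9.08, 8.995 and 9.08 in pEGFR-Lo mice. The groups did not overlap, the highest pEGFR-Hi mouse lying 0.44 below the lowest pEGFR-Lo mouse, and the pEGFR-Lo mice were tightly bunched. The means were 8.07 ± 0.36 in pEGFR-Hi and 9.13 ± 0.12 in pEGFR-Lo (SD, n = 6 each), a log2 difference of -1.05 with a 95% interval from -1.35 to -0.76 (limma adjusted p 1.55e-05). That interval crosses the 2-fold line, and without pEGFR-Hi mouse 2 the difference was -0.97 and the call was lost. Sqle lies on chromosome 15, whose 550 genes above background had a median difference of -0.27, and the 20 measured genes nearest to it had a median of -0.47 with 1 called higher and 2 called lower. The part of that stretch in the Sqle difference was not tested. The enzymes on either side of Sqle were not called. Fdft1, the squalene synthase that feeds it, differed by 0.35 (limma adjusted p 0.201), and Lss, the lanosterol synthase that takes its product, by 0.14 (limma adjusted p 0.40). Cyp51, which demethylates lanosterol, differed by -0.25 (limma adjusted p 0.237).

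The 7 late sterol enzymes had a median difference of -0.02, and 0 were called. Sc5d, a sterol desaturase, read 7.65, 7.52, 7.55, 7.56, 7.83 and 7.35 in pEGFR-Hi mice, against 8.12, 7.93, 7.94, 7.80, 7.84 and 7.85 in pEGFR-Lo mice. It was lower in pEGFR-Hi by 1.26-fold (limma adjusted p 0.00611), with pEGFR-Hi mouse 5 alone reaching the pEGFR-Lo range. Its 20 nearest measured genes had a median difference of -0.28, of which 6 were called lower, and their part was not tested. Msmo1, a sterol methyl oxidase, averaged 7.86 ± 0.45 in pEGFR-Hi and 8.40 ± 0.16 in pEGFR-Lo (SD, n = 6 each; limma adjusted p 0.0187), short of the limit. The 20 measured genes nearest to Msmo1 had a median of -0.27, with 1 called higher and 3 called lower. Ebp, a sterol isomerase, differed by 0.33 (limma adjusted p 0.0607). The sterol reductases Dhcr7, Tm7sf2 and Hsd17b7 differed by -0.26, 0.07 and 0.05, and the dehydrogenase Nsdhl by -0.02 with a 95% interval from -0.44 to 0.40. Ebp and Nsdhl lie on chromosome X, whose 417 genes above background had a median difference of -0.12, with 19 called higher and 67 lower. On chromosome Y the 5 genes above background had a median of 2.78, with 3 called higher. The part of this difference between the lines was not tested.

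**Figure D2:**
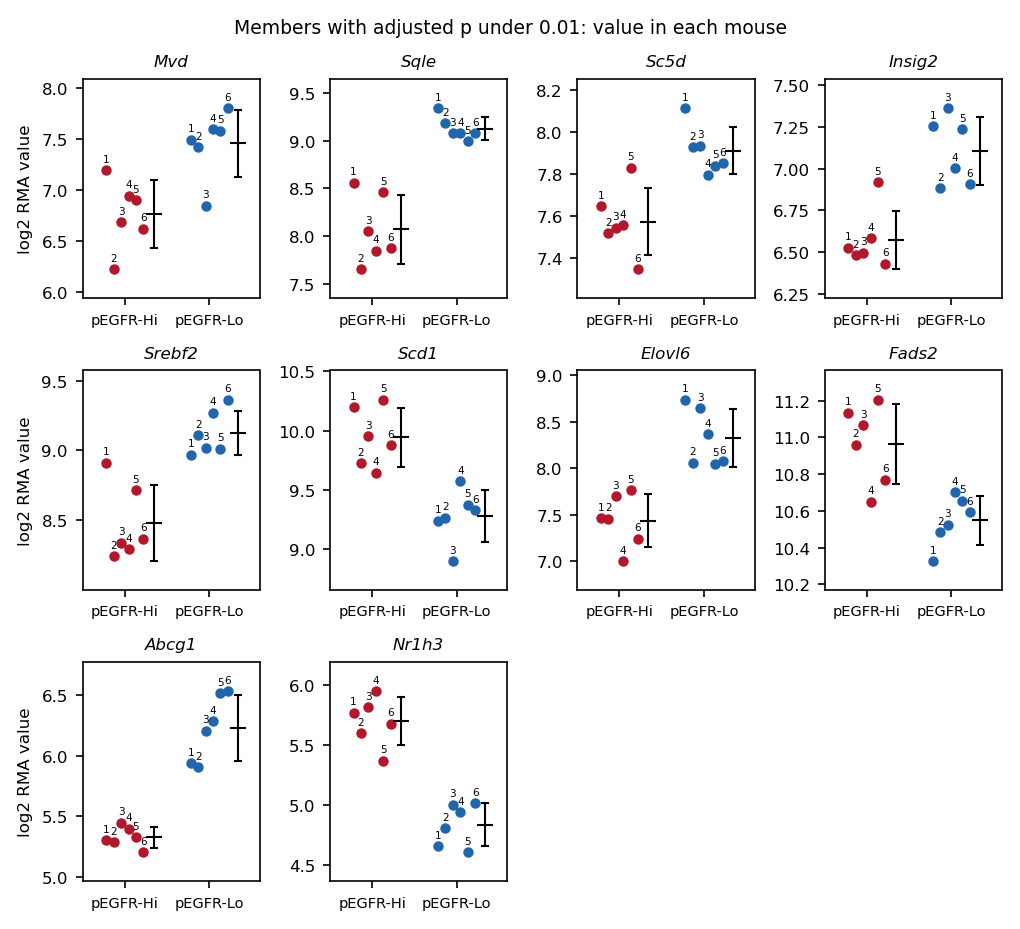
Log2 RMA value in each mouse for the 10 genes with a limma adjusted p under 0.01, pEGFR-Hi in red on the left and pEGFR-Lo in blue on the right of each panel; digits are replicate numbers, bars are the mean with 1 SD, and each panel has its own axis. Sqle, Srebf2, Elovl6 and Abcg1 are lower in pEGFR-Hi with no overlap, Scd1 and Nr1h3 higher with no overlap, and the other 4 overlap by 1 to 3 mice of a group.

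All 5 genes of SREBP control were lower in pEGFR-Hi by sign, with a median difference of -0.27, where 9603 of the 19938 genes were below 0. Of the 5, 2 were lower at an adjusted p under 0.01, beside 12.9% of all genes, and 0 reached 2-fold. Srebf2, which encodes the SREBP that acts mainly on sterol genes, read 8.91, 8.25, 8.34, 8.29, 8.71 and 8.37 in pEGFR-Hi mice, against 8.97, 9.11, 9.02, 9.27, 9.01 and 9.36 in pEGFR-Lo mice. It was lower in pEGFR-Hi by 1.56-fold (limma adjusted p 0.000414), and the groups were separated by 0.06, between mouse 1 of each. Srebf2 also lies on chromosome 15, and its 20 nearest measured genes had a median of -0.12 with 1 called higher and 4 called lower. Insig2 read 6.53, 6.48, 6.50, 6.58, 6.92 and 6.43 in pEGFR-Hi mice, against 7.25, 6.88, 7.36, 7.0004, 7.23 and 6.91 in pEGFR-Lo mice. It was lower in pEGFR-Hi by 1.45-fold (limma adjusted p 0.000822), with pEGFR-Hi mouse 5 above 2 of the pEGFR-Lo mice. Its nearest 20 genes had a median of -0.22, of which 1 was called higher and 4 lower. Insig1, itself a classical SREBP target, read 9.74, 9.03, 9.87, 8.99, 9.93 and 8.43 in pEGFR-Hi mice, against 9.77, 9.42, 9.34, 9.59, 9.53 and 9.95 in pEGFR-Lo mice. The pEGFR-Hi values ran from below the lowest pEGFR-Lo mouse almost to the highest, and the difference of -0.27 had a 95% interval from -0.74 to 0.20. Scap differed by -0.27 (limma adjusted p 0.0622) and Srebf1, the form that acts mainly on fatty acid genes, by -0.09 (limma adjusted p 0.653).

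None of the 5 genes of fatty acid synthesis passed any threshold, down to an unadjusted p under 0.05. Fasn, the fatty acid synthase, ranged from 8.85 to 9.59 in pEGFR-Hi and from 8.61 to 9.48 in pEGFR-Lo, and the 95% interval of its difference ran from -0.36 to 0.36. Acly, which supplies cytosolic acetyl-CoA from citrate, averaged 8.54 ± 0.11 in pEGFR-Hi and 8.52 ± 0.12 in pEGFR-Lo (SD, n = 6 each), with a 95% interval of the difference from -0.15 to 0.19. Acaca, the cytosolic acetyl-CoA carboxylase, differed by 0.22 ± 0.10 (SE; limma adjusted p 0.122). Acss2, which makes acetyl-CoA from acetate, differed by 0.18, and Acacb, the mitochondrial carboxylase, by 0.13. Acacb was close to the background level, at 4.30 to 4.65 in pEGFR-Hi and 4.23 to 4.47 in pEGFR-Lo.

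Of the 6 elongases and desaturases 2 were higher and 1 lower in pEGFR-Hi at an adjusted p under 0.01, beside 14.7% and 12.9% of all genes. Among these 6, 0 reached 2-fold. Scd1, a desaturase that makes monounsaturated fatty acids, read 10.20, 9.72, 9.95, 9.65, 10.26 and 9.88 in pEGFR-Hi mice, against 9.24, 9.26, 8.90, 9.57, 9.37 and 9.33 in pEGFR-Lo mice. It was higher in pEGFR-Hi by 1.58-fold (limma adjusted p 0.000485), and the groups were separated by 0.07. Fads2, a desaturase of polyunsaturated fatty acids, read 11.13, 10.96, 11.07, 10.65, 11.21 and 10.77 in pEGFR-Hi mice, against 10.33, 10.48, 10.53, 10.70, 10.66 and 10.59 in pEGFR-Lo mice. It was higher in pEGFR-Hi by 1.33-fold (limma adjusted p 0.00433), with pEGFR-Hi mouse 4 inside the pEGFR-Lo range. Elovl6, which lengthens the chains that Fasn releases, was the lower one. It read 7.46, 7.46, 7.70, 7.005, 7.76 and 7.24 in pEGFR-Hi mice, against 8.74, 8.06, 8.64, 8.37, 8.05 and 8.08 in pEGFR-Lo mice, and was lower in pEGFR-Hi by 1.85-fold with no overlap (limma adjusted p 0.000196). The 20 nearest measured genes had medians of 0.18 for Elovl6, 0.18 for Scd1 and 0.07 for Fads2, and their part was not tested. Scd2, Fads1 and Elovl5 differed by 0.19, 0.13 and -0.12, and none of the 3 had an adjusted p under 0.05. Scd1 and Scd2 are close paralogs, and how well their probe sets tell them apart was not tested.

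Of the 4 measured genes of LXR and lipid export, Nr1h3 and Abcg1 differed in opposite directions. Nr1h3, which encodes LXR alpha, read 5.77, 5.60, 5.81, 5.95, 5.37 and 5.68 in pEGFR-Hi mice, against 4.66, 4.81, 5.003, 4.94, 4.61 and 5.01 in pEGFR-Lo mice. It was higher in pEGFR-Hi by 1.81-fold (limma adjusted p 7.62e-06), with a gap of 0.36 between the groups. Abcg1, an exporter of cholesterol, read 5.30, 5.29, 5.45, 5.40, 5.33 and 5.20 in pEGFR-Hi mice, against 5.94, 5.91, 6.21, 6.28, 6.52 and 6.53 in pEGFR-Lo mice. It was lower in pEGFR-Hi by 1.87-fold (limma adjusted p 7.28e-06), with a gap of 0.46. The 20 nearest measured genes had medians of -0.06 for Nr1h3 and 0.03 for Abcg1, and their part was not tested. Abca1, the other cholesterol exporter, ranged from 7.19 to 8.43 in pEGFR-Hi and from 7.26 to 8.34 in pEGFR-Lo. Apoe, the main lipid carrier of glia, differed by 0.29 ± 0.15 (SE; limma adjusted p 0.142).

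Within pEGFR-Hi many of the sterol genes were high and low in the same mice. Mice 1, 3 and 5 held the 3 highest values in 18 of the 37 genes (48.6%), against 6.85% of the 13519 genes above background by their overall mean. This pattern was noticed in the values and is given as a description with no test. It covered 4 of 6 genes of the mevalonate steps, 4 of 4 of the squalene and lanosterol steps, 4 of 7 late sterol genes and 5 of 6 elongases and desaturases. It covered 1 of 5 genes of SREBP control, Insig1, and 0 of the 5 genes of fatty acid synthesis and 0 of the 4 of LXR and lipid export. A gap of at least 0.3 between the third and the fourth mouse was present in 8 of the 37, against 104 of the 13519 genes. Those 8 were Idi1 with a gap of 0.86, Hmgcs1 with 0.80, Fdft1 with 0.76, Nsdhl with 0.74, Insig1 with 0.71, Tm7sf2 with 0.66, Msmo1 with 0.62 and Fdps with 0.37. Mice 1, 3 and 5 are the odd replicate numbers. The even ones, mice 2, 4 and 6, held the 3 highest values in 0 of the 37 genes. They did so in 7.47% of the 13519 genes, more than any other 3 mice, and 37 of those genes had such a gap. Every remaining set of 3 mice had such a gap in at most 29 genes. The split of odd from even replicates thus also ran through genes outside the list.

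Fdft1 shows the split plainly, at 8.60, 8.40 and 8.64 in pEGFR-Hi mice 1, 3 and 5 and at 7.58, 7.64 and 7.61 in mice 2, 4 and 6, while the pEGFR-Lo mice ranged from 7.52 to 8.10. Nsdhl read 9.005, 8.79 and 8.96 in pEGFR-Hi mice 1, 3 and 5 and 8.02, 8.05 and 7.75 in mice 2, 4 and 6, on either side of a pEGFR-Lo range of 8.21 to 8.61. Its near-zero mean difference thus came from pEGFR-Hi mice that lay above and below every pEGFR-Lo mouse. Idi1 read 8.17, 8.10 and 8.13 in mice 1, 3 and 5 and 7.14, 7.24 and 7.03 in mice 2, 4 and 6 of pEGFR-Hi, against 7.04 to 7.65 in pEGFR-Lo. The spread was accordingly wide. The SD was larger in pEGFR-Hi than in pEGFR-Lo for 13 of the 17 sterol synthesis genes (76.5%), their median SD being 0.346 for pEGFR-Hi against 0.232 for pEGFR-Lo, and for 10 of the 20 other genes of the list, beside 41.9% of all genes above background. The same mice were also the highest in the interferon-stimulated list, whose 17 measured genes averaged 8.24, 7.77, 8.41, 7.65, 8.81 and 7.48 in pEGFR-Hi mice 1 to 6, against 6.42, 6.60, 4.99, 6.45, 5.95 and 4.97 in pEGFR-Lo mice. Of those 17, 14 were called higher in pEGFR-Hi, beside 3.99% of all genes. Astrocyte markers too were highest in pEGFR-Hi mice 1, 3 and 5, at means of 6.75, 6.75 and 6.83. Mice 2, 4 and 6 were at 6.56, 6.60 and 6.55. The 6 neural progenitor and glioma markers averaged 9.60, 9.68 and 9.70 in mice 1, 3 and 5, and 9.58, 9.42 and 9.49 in mice 2, 4 and 6. Fabp7, a lipid gene, is 1 of these 6 markers. It read 10.78, 11.49 and 11.14 in mice 1, 3 and 5, and 10.47, 10.16 and 10.24 in mice 2, 4 and 6. The mean over the 6 therefore does not show that the other progenitor and glioma markers shared the order. The order did not hold for microglia and macrophage, oligodendrocyte, neuron, endothelial or blood markers. Whether any of these lists has a part in the split of the sterol genes was not tested. The labels give no batch that separates these mice.

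**Figure D3:**
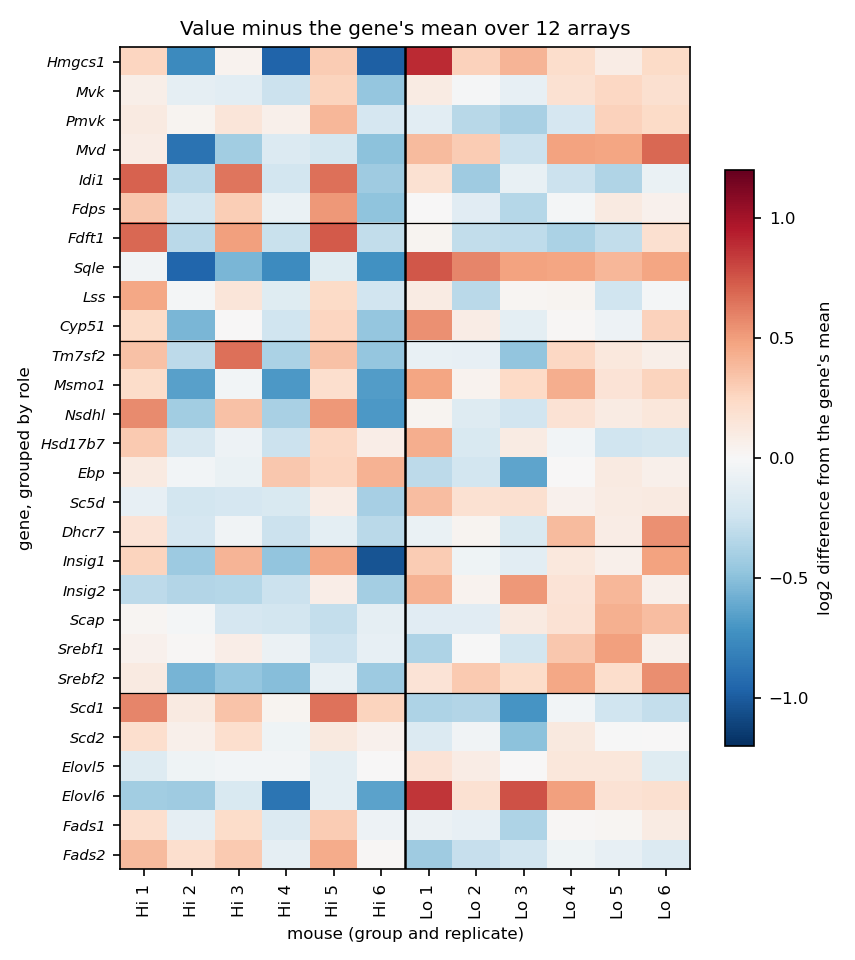
Log2 value of each gene in each mouse minus that gene's mean over the 12 arrays, for the 28 genes of sterol synthesis, SREBP control, elongation and desaturation; columns are pEGFR-Hi mice 1 to 6 and then pEGFR-Lo mice 1 to 6, and black lines part the roles. Mice 1, 3 and 5 of pEGFR-Hi are red and mice 2, 4 and 6 blue in Idi1, Fdft1, Tm7sf2, Nsdhl and Insig1, while Sqle, Srebf2 and Elovl6 are blue in nearly every pEGFR-Hi mouse.

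Promoter stretches of these co-varying genes are printed with matches to the letters of short motifs marked. Whether the motifs have a part in the pattern was not tested. The stretches run from 180 bases before the start of the RefSeq gene to the base before it, on build GRCm38.p6, 5′ to 3′ on the gene's strand. They are given for the 6 of the 8 genes that have an entry in that table, and Fdft1 and Fdps are named only. Capitals mark a sterol regulatory element (TCACNCCAC), an E-box (CACGTG), an NF-Y box (CCAAT) or an Sp1 box (GGGCGG), each searched on both strands.
Hmgcs1, chr13:119690171-119690350, plus strand: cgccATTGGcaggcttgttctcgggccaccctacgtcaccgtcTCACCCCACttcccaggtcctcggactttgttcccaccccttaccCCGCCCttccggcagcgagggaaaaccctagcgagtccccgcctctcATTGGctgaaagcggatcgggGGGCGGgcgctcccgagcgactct
Idi1, chr13:8885426-8885605, plus strand: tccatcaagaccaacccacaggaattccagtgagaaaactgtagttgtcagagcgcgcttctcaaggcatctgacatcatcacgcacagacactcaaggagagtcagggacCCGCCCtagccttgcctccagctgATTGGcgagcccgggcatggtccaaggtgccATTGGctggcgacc
Tm7sf2, chr19:6067851-6068030, minus strand: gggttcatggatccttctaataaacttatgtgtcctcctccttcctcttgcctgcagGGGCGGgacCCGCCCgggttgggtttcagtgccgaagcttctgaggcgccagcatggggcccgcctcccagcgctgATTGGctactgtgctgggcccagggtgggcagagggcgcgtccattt
Msmo1, chr8:64733579-64733758, minus strand: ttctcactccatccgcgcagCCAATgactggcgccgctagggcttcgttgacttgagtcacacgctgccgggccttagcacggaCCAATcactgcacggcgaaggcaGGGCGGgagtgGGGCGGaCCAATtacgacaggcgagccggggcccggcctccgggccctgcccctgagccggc
Nsdhl, chrX:72918341-72918520, plus strand: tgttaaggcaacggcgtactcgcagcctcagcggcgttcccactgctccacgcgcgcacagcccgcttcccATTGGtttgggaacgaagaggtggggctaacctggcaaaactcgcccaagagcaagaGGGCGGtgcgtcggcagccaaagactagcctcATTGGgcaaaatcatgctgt
Insig1, chr5:28071232-28071411, plus strand: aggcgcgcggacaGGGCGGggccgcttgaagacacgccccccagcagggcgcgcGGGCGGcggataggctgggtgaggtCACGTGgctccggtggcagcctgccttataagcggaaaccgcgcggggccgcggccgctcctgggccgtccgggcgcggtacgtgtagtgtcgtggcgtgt
The exact sterol regulatory element was found in Hmgcs1 only, as TCACCCCAC from -137 to -129, with NF-Y boxes from -176 to -172 and from -45 to -41. Msmo1 held NF-Y boxes from -160 to -156, from -96 to -92 and from -55 to -51, with 2 Sp1 boxes between the last 2 of them. Insig1 held an E-box from -101 to -96 and 2 Sp1 boxes but no NF-Y box in this stretch. None of these motifs overlapped another, apart from the E-box, which reads the same on both strands.

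Over the window from 250 bases before to 50 after the start, 31 of the 38 listed genes had an entry. The NF-Y box was in 23 of them (74.2%), against 41.1% of 27025 genes of the table. The Sp1 box was in 22 (71.0%), against 38.2%, and the E-box in 7 (22.6%), against 8.09%. The exact sterol regulatory element was in 1 (3.23%), against 1.44%. An LXR direct repeat was in 0, against 0.0148%. A match says only that the letters are present in the window. A gene counted when any of its windows matched, and the 31 had 42 windows, the 27025 had 32851. All 37 measured genes of the list were above background, while the 27025 were not limited to expressed genes. Scd1, Scd2, Sqle, Fads1, Abcg1, Fdft1 and Fdps have no entry.

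Thrsp, Elovl2 and Elovl7 had the largest differences among genes of neighbouring lipid pathways that are not on the list. Of 80 such genes listed 69 were measured, and 0 were called higher in pEGFR-Hi and 10 lower, beside the 3.99% and 5.06% of all genes. SAM also called 0 higher and 10 lower, beside 801 and 1009 of all 19938 genes. At an unadjusted p under 0.05, 11 of the 69 were higher and 31 lower, beside 4586 and 3945 of all genes. Their median difference was -0.21. With no fold limit, 3 were higher in pEGFR-Hi at an adjusted p under 0.01 by limma, Abcg4 by 1.78-fold, Erlin1 by 1.57-fold and Scarb1 by 1.54-fold, and 22 were lower, beside 14.7% and 12.9% of all genes. Thrsp, the thyroid hormone responsive protein that accompanies lipogenesis, read 5.49, 4.62, 5.08, 4.62, 4.98 and 4.47 in pEGFR-Hi mice, against 9.66, 9.59, 9.49, 9.78, 9.80 and 9.70 in pEGFR-Lo mice. It was lower in pEGFR-Hi by 27.7-fold (limma adjusted p 1.96e-12), with the pEGFR-Hi mice not far above the background level and the pEGFR-Lo mice far over it.

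Elovl2, an elongase of polyunsaturated fatty acids, ranged from 5.44 to 6.22 in pEGFR-Hi and from 8.74 to 9.13 in pEGFR-Lo, 8.19-fold lower in pEGFR-Hi (limma adjusted p 2.26e-11). Elovl7, an elongase of saturated very long chains, ranged from 4.39 to 4.97 in pEGFR-Hi and from 7.06 to 7.76 in pEGFR-Lo, 6.67-fold lower (limma adjusted p 7.03e-11). With Elovl6, 3 of the 6 elongases on the list or among these related genes had groups that did not overlap. All 3 were lower in pEGFR-Hi, beside 11.1% of all genes, while Elovl1, Elovl4 and Elovl5 differed by -0.32, -0.25 and -0.12. Elongases outside these lists were not looked up. Me1, the malic enzyme that supplies NADPH for lipid synthesis, was 2.79-fold lower in pEGFR-Hi, and Nr1d1, a repressor of the circadian clock that also acts on lipid genes, 2.61-fold lower. The fatty acid binding proteins Fabp7 and Fabp5 were 2.58-fold and 2.29-fold lower in pEGFR-Hi, and Clu, the apolipoprotein clusterin, 2.56-fold lower. The last 2 called genes were lower in pEGFR-Hi by 2.27-fold and 2.24-fold.

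Astrocyte markers moved in the same comparison. Of 10 markers 4 were called lower in pEGFR-Hi, Slc1a2, Slc1a3, Gja1 and S100b, beside 5.06% of all genes, and 1 higher, Gfap, beside 3.99%. Aldoc averaged 11.99 in pEGFR-Hi and 11.54 in pEGFR-Lo, 1.37-fold higher in pEGFR-Hi (limma adjusted p 0.000773) and short of 2-fold. Sox9, Fgfr3 and Aqp4 differed by -0.12, 0.15 and -0.01 on the log2 scale, so the markers did not all move together. Aldh1l1 was below background in both groups. The mean of the 10 ranged from 6.55 to 6.83 in pEGFR-Hi and from 7.63 to 8.02 in pEGFR-Lo. Fabp7 is also on the list of neural progenitor and glioma markers. The part of these markers in the lipid differences was not tested.

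**Figure D4:**
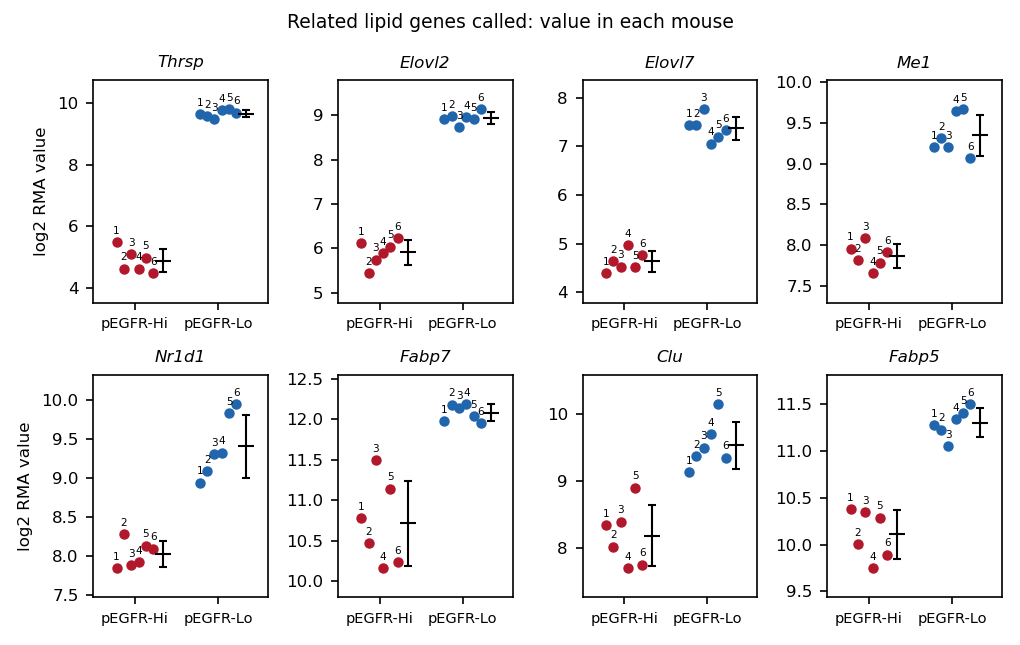
Log2 RMA value in each mouse for the 8 related lipid genes with the largest differences among the 10 called, pEGFR-Hi in red on the left and pEGFR-Lo in blue on the right; digits are replicate numbers, bars are the mean with 1 SD, and each panel has its own axis. All 8 are lower in pEGFR-Hi with no overlap, from 27.7-fold for Thrsp to 2.29-fold for Fabp5.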

How the data were processed

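RNA of ZsGreen-positive, DAPI-negative tumor cells, sorted after papain dissociation and a Percoll step against myelin and red cells, was measured on Affymetrix Mouse Gene 1.0 ST arrays, 1 per mouse. Cerebellum and olfactory bulbs had been removed. The authors deposited log2 values made with RMA in Affymetrix Expression Console; neither its version nor the annotation build is stated in the labels or methods, and no array coordinates are printed. Groups and replicate numbers came from the labels. Of 35556 probe sets, 21789 had 1 gene symbol, 1621 several and 12146 none; 21698 were matched by Entrez ID to RefSeq GRCm38.p6. For 999 genes with several probe sets the brightest was used. Idi1, Fdft1 and Acaca had 2 each, which gave the same direction.

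These deposited log2 values entered a limma 3.58.1 fit (lmFit, eBayes; R 4.3.3 and version 1.17.8 of data.table), with Benjamini-Hochberg adjustment over all 19938 genes, at an adjusted p under 0.01 and at least 2-fold. These are the limits the methods used with SAM, which was run here as an alternative with 100 permutations. Python 3.11.15 with matplotlib 3.10.9 drew the figures. Neighbours are the 10 nearest measured genes above background on each side in RefSeq order, or fewer near a chromosome end. The members and lists were chosen with earlier results of these data known. All members are accounted for; values in each mouse are given for those called or not overlapping, and up to 8 called related genes are named. Values in each mouse of Mvd, Hmgcs1, Sc5d, Insig1, Insig2 and Fads2, and the pattern of mice 1, 3 and 5, were chosen for print after the values were seen. Other alternatives were median centring of the arrays, a second quantile normalization, genes above background only, array weights, the robust trended form of eBayes, a block for replicate number, other limits, averaged probe sets, each array left out in turn, and both pEGFR-Lo replicates 3 and 6 left out. The fitting code was tested on simulated data. With 6 arrays per group, their number limits the precision.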

Additional observations from a re-analysis of the deposited data

Results flagged for a closer look

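Insig2, an anchor of the SREBP escort complex, was high in 1 pEGFR-Hi mouse. Replicate 5 read 6.92, with the nearest of the other pEGFR-Hi mice at 6.58, and that gap took up 0.69 of the whole range of the group. It was the only such case among 74 groups of 6 mice tested (37 genes in each of the 2 groups), and chance alone marks about 1 in 20. Leaving out each array in turn kept Insig2 lower in pEGFR-Hi, by 0.48 to 0.60 on the log2 scale, with a highest limma adjusted p of 0.00263.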

How the results depend on the processing

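Sqle alone was called lower, and 0 genes of the list higher, under SAM, another quantile normalization, median centring, the filter on dim genes, array weights, the replicate block, the robust trended eBayes, the mean of probe sets, and without pEGFR-Lo replicates 3 and 6. Over all genes the replicate block called 801 higher and 1008 lower, against 795 and 1009 without it. The numbers do not pair the mice: correlations of same-numbered mice ran from -0.181 to 0.120, and 1 of 6 mice correlated best with its own number. With no fold limit, an adjusted p under 0.05 was reached by 3 genes of the list higher and 9 lower, and by 3871 and 3314 of all genes; an adjusted p under 0.01 was reached by 3 and 7, and by 2933 and 2574 of all genes. Leaving out each array in turn gave 0 to 1 called lower and 0 to 0 called higher in the list, and 991 to 1031 lower and 774 to 846 higher over all genes; without pEGFR-Hi replicate 2 Sqle was at -0.97 and was lost. The sign turned only in genes that passed no test. Nsdhl was at 0.0042 after quantile normalization and 0.0018 after centring. Fasn was at 0.0373 after quantile normalization, 0.0222 after centring, 0.0134 with array weights and 0.0752 without pEGFR-Lo replicates 3 and 6, which also put Tm7sf2 at -0.0129. With 1 array left out, the range crossed 0 for Hsd17b7 (-0.014 to 0.1377), Acly (-0.0267 to 0.0459), Nsdhl (-0.136 to 0.1157), Abca1 (-0.0172 to 0.2373), Tm7sf2 (-0.0564 to 0.1681) and Fasn (-0.0986 to 0.0763). Sc5d and Fads2 lost an adjusted p under 0.01 with some array left out (highest 0.0165 and 0.012). The cause of these shifts was not tested. With 6 mice per group and 1 line each, the 95% interval stayed inside 1.5-fold for 21 of the 37 genes, and for the others these arrays do not bound the difference that closely.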

Other observations

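In pEGFR-Lo the mice most often highest together were replicates 4, 5 and 6. They held the 3 highest values in 14 of the 37 genes (37.8%), against 12.5% of genes above background. A gap of at least 0.3 behind them was present in 0 of the 37, beside 47 of the 13519 genes above background. Of the 69 related lipid genes, 12 were highest in pEGFR-Hi mice 1, 3 and 5, beside 6.85% of the genes above background. Among those 12, the 4 genes Clu, Fabp7, Lcat and Thrsp had such a gap, beside 104 of the 13519 genes.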
